A study of Homo sapiens with 2 samples.

Results

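ABC transporters are membrane proteins that use ATP to move substrates across membranes, and 37 protein-coding genes of the subfamilies ABCA, ABCB, ABCC, ABCD and ABCG could be followed in a pair of human prostate cancer lines, C4-2B and its enzalutamide-resistant derivative C4-2B-MDVR. Members were the probe sets whose single gene symbol on the array platform was one of these subfamily names followed by a number. They came to 83 of 41097 probe sets with 1 symbol, for 37 of 19775 named genes. Pseudogenes (7 probe sets of 4 genes) and 2 probe sets shared by a member with a second gene were left out.

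The C4-2B cells are labelled as sensitive to enzalutamide, an antiandrogen drug, and C4-2B-MDVR cells were obtained from them by long selection in it. Both lines grew in the same serum-containing medium and neither was treated before RNA was taken. Each line was hybridized to 1 Affymetrix expression array, so there is no spread between replicates, no p-value or SE for any gene, and precision is limited by the number of arrays. The sample's title, source and cell line labels name C4-2B-MDVR, but the description field instead gives TaxR, resistant to docetaxel, and for C4-2B gives sensitivity to docetaxel. Every difference below sets the array labelled C4-2B-MDVR against that labelled C4-2B.

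Most members export their substrate from the cytosol, to the outside of the cell or into an organelle. ABCA and ABCG proteins mainly handle sterols and phospholipids. The ABCB group joins the multidrug pump P-glycoprotein with mitochondrial and lysosomal half-transporters. ABCC holds the multidrug resistance proteins, which pump out organic anions and drug conjugates. Most ABCD proteins carry very long and branched fatty acids into peroxisomes, while ABCD4 acts in lysosomes. Drug efflux by ABCB1, ABCC1 and ABCG2 is a textbook mechanism of resistance to taxanes, anthracyclines and other cytotoxic drugs.

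The ABC family as a whole did not move in one direction. ABCC4, an exporter of cyclic nucleotides, prostaglandins and steroid conjugates, was far lower in C4-2B-MDVR, and ABCB11, the bile salt export pump, was higher. These were the 2 members beyond 2-fold, 1 in each direction. Below that size ABCG1, ABCG2 and ABCC8 were higher, and ABCB10 and ABCC1 were lower. The drug pump ABCB1 was under the detection floor on both arrays.

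The detection floor was the median intensity of each array, 41.9 on the C4-2B array and 43.5 on the other, and a gene counted as above it when its brighter array reached its own floor. Intensities ran from 4.44 to 20840 for C4-2B and from 4.31 to 20631 for C4-2B-MDVR. Each gene was read from its brightest probe set. Of the 37 members 21 (56.8%) were above the floor, against 67.9% of all named genes. A difference is the log2 intensity of C4-2B-MDVR less that of C4-2B. Over the 21 members the median difference was 0.17, against 0.04 over all 13437 genes above the floor, but its sign turned with the floor at the 75th percentile (-0.32, over 9 members), and it was 0.33 without probe sets marked _x_at or _s_at. ABCA4, ABCB11 and ABCG8 passed the floor only through the array where they were higher, which fixed their direction. Of the 18 members above the floor on both arrays 10 (55.6%) lay above 0, against 54.9% of all such genes. At 2-fold or more, 1 of 21 members was higher (4.76%) and 1 was lower (4.76%). The shares of all genes were 3.17% higher and 3.5% lower, so each of these counts is a single gene, and 9.52% either way compares with 6.67% of all genes. At 1.5-fold or more 4 members were higher (19.0%: ABCB11, ABCG1, ABCG2 and ABCC8) and 3 were lower (14.3%: ABCC4, ABCB10 and ABCC1), against 8.26% and 9.32% of all genes.

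**Figure D1:**
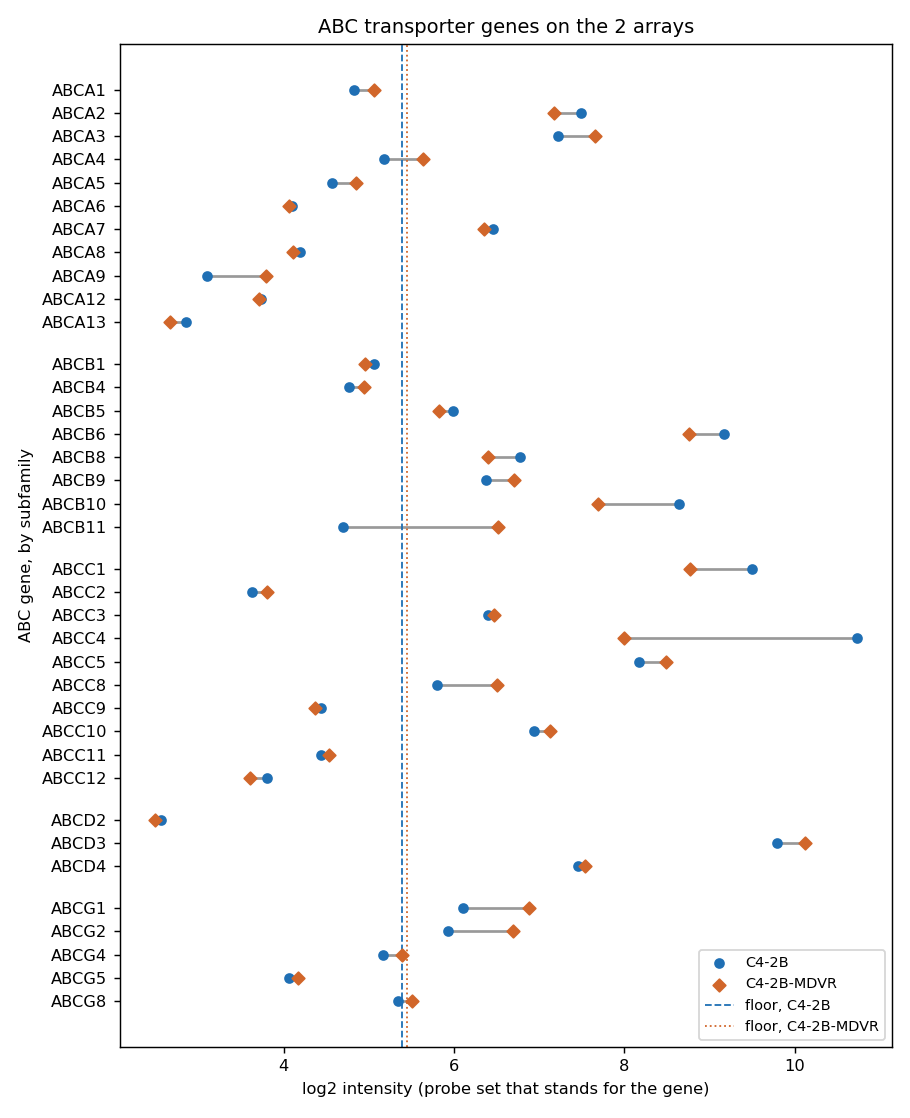
Log2 intensity of the probe set that stands for each of the 37 ABC genes on the C4-2B array (circles) and the C4-2B-MDVR array (diamonds), grouped by subfamily, with each array's floor as a vertical line. Only the 2 symbols of a row can be compared, since probe sets differ in brightness; the longest lines are those of ABCC4 (-2.74) and ABCB11 (1.82), and 16 genes lie under the floor on both arrays.

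The stretches of DNA before the starts of ABCC4 and ABCB11 are shown because these genes carry the largest differences of the family. Both are the 250 bases before the gene's start in RefSeq on build GRCh38.p14, written 5′ to 3′ on the gene's strand, which is the minus strand for both: chr13:95301452-95301701 for ABCC4 and chr2:169031325-169031574 for ABCB11. Capitals mark a match to any searched motif.
ABCC4: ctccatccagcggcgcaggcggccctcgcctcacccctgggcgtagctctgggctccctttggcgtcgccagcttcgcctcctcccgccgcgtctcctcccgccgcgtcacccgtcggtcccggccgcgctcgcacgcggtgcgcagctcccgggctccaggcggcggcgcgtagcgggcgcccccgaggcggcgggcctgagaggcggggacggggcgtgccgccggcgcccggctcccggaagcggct
ABCB11: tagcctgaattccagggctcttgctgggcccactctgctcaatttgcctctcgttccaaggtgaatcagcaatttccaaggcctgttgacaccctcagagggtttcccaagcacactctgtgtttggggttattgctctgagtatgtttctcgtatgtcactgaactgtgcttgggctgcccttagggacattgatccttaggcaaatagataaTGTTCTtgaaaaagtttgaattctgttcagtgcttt
The ABCC4 window is rich in G and C (80.4%, with 42 CpG dinucleotides), above the upper quartile of 68% over 35093 such windows. The ABCB11 window has 46.4% G and C and 2 CpG. Searched on both strands were the androgen receptor half-site AGAACA, the half-site AGGTCA of bile acid, oxysterol and other nuclear receptors, and the GC box GGGCGG, none of which contains another. The ABCB11 window held 1 match, an androgen receptor half-site on the opposite strand whose first letter is 36 bases before the start, and the ABCC4 window held 0. Over all windows the androgen half-site occurred in 12.4%, the nuclear receptor half-site in 12.1% and the GC box in 42.6%. These letter matches describe the windows only.

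ABCC4 had the largest difference of the family, and its 3 probe sets above the floor went the same way. The probe set that stands for the gene read 1706 on the C4-2B array against 255 on the C4-2B-MDVR array, a difference of -2.74 or 6.68-fold lower. The other probe sets above the floor went from 687 to 128 (-2.43) and from 310 to 80.6 (-1.94). A further ABCC4 probe set, at 11.3 and 8.31, was under the floor on both arrays. All 3 lower readings stayed above the floor in C4-2B-MDVR, so these are differences between measured levels and not bounds. In bulk RNA, fewer cells that express a gene and less of its RNA per cell cannot be told apart. Among all genes above the floor 44 (0.327%) were at or below -2.74, ABCC4 included.

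ABCC4 is also known as an androgen-responsive gene of the prostate, and other androgen-responsive genes among the prostate markers did not share one direction. KLK2 (from 1263 to 295, -2.10) and SLC45A3 (from 1091 to 102, -3.42) were lower, TMPRSS2 was at -0.27 (from 610 to 506), and KLK4 was at 0.43 (from 331 to 447, with all 5 probe sets above 0). ABCC4 lies on chromosome 13. Of the 3 nearest protein-coding genes above the floor on each side, chosen after the values were seen, 5 of 6 lay below 0. Among all 13437 genes above the floor 6019 did. GPR180 and DZIP1 passed the floor on 1 array only, which fixed their signs. GPR180 went from 90.1 to 36.3, under the floor and at least 2.07-fold lower, GPC6 was at -0.90, DNAJC3 at -0.89, TGDS at -0.44 and UGGT2 at -0.27. DZIP1, the nearest on one side, went the other way (from 38.1, under the floor, to 77.2, at least 1.84-fold higher). The part of androgen response or of the chromosomal region in the ABCC4 difference was not tested.

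The other drug and conjugate efflux pumps differed by less, and in both directions. Of the 10 listed efflux genes on the array, ABCC4 included, 6 were above the floor, with a median of 0.13. Among them 1 gene, ABCC4, was 2-fold or more lower (16.7%, against 3.5% of all genes) and 0 were higher. ABCC1, the multidrug resistance protein that exports glutathione conjugates and anthracyclines, went from 725 to 437 (-0.73). Its second probe set went from 320 to 174 (-0.88), so both were lower in C4-2B-MDVR by less than 2-fold.

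ABCG2, the breast cancer resistance protein, went the other way, from 61.0 in C4-2B to 103 in C4-2B-MDVR (0.76, or 1.69-fold), in its 1 probe set. ABCC5, which exports cyclic nucleotides and nucleotide analogues, went from 289 to 360 (0.32), and its 3 probe sets did not match one another, at -0.06, 0.32 and 0.98. The last of these went from 89.9 to 178.

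ABCC10, a broad drug pump, went from 122 to 140 (0.20), and ABCC3, which exports bile acids and glucuronides, from 84.5 to 88.4 (0.07). The 4 ABCC3 probe sets above the floor ran from -0.14 to 0.27. Levels of both were close on the 2 arrays.

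ABCB1 encodes P-glycoprotein, which exports docetaxel and many other drugs. Its probe sets read 33.2 and 31.0 in the first pair and 9.93 and 9.36 in the second (C4-2B and then C4-2B-MDVR). All 4 readings were under the floor, so no level or direction can be given for ABCB1 on either array, including the one whose description names a docetaxel-resistant line. ABCC2, the canalicular conjugate pump, and ABCC11 and ABCC12 were under the floor on both arrays as well. ABCC6 was not analysed here.

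**Figure D2:**
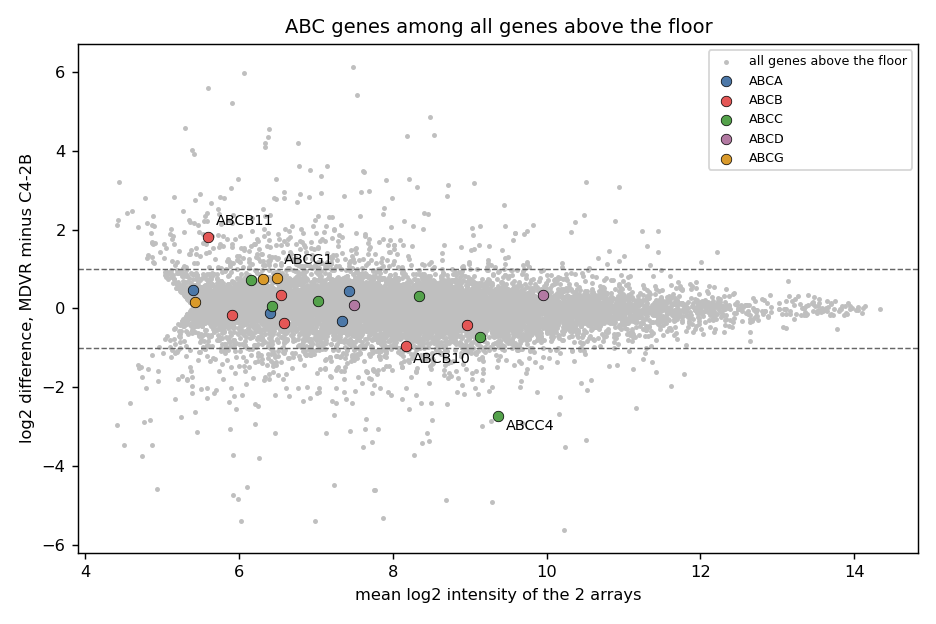
Log2 difference (C4-2B-MDVR minus C4-2B, vertical axis) against mean log2 intensity (horizontal axis) for the 13437 genes above the floor (grey), with the 21 ABC genes coloured by subfamily and dashed lines at 2-fold. ABCC4 (-2.74) and ABCB11 (1.82) lie outside the lines and the other 19 members between them.

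ABCB11, the pump that liver cells use to secrete bile salts, was under the floor in C4-2B but not in C4-2B-MDVR. Its brighter probe set read 25.9 in the parental line against 91.1 in the resistant one, a measured difference of 1.82. Against the C4-2B floor that is at least 2.17-fold higher. The second probe set went from 12.2 to 77.0, a measured difference of 2.66 and at least 1.84-fold by the same bound. Both ABCB11 probe sets passed the floor only on the C4-2B-MDVR array, which fixed their direction, and 1 of 2 passed 2-fold by bound. Of all genes above the floor 294 (2.19%) were at least as far apart as ABCB11 by bound, in the higher direction, and by bound 2.76% of all genes were 2-fold or more higher and 3.14% lower.

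Liver markers did not differ to that extent. Albumin (ALB) was under the floor on both arrays, TTR went from 136 to 155 (0.19) and APOA1 from 72.2 to 74.9 (0.05). So 2 of these 3 markers were above the floor, and neither differed by 1.5-fold. The genes next to ABCB11 on chromosome 2 were chosen in the same way as those next to ABCC4. SPC25 was at 0.07, DHRS9 at 0.06, CERS6 at 0.16 and LRP2 at 0.28. BBS5 was at 0.75 (at least 1.11-fold higher), while NOSTRIN went from 132 to 35.2 and was at least 3.04-fold lower. BBS5 was under the floor on the C4-2B array and NOSTRIN on the C4-2B-MDVR array, which fixed their signs. The part of liver gene expression or of the chromosomal region in the ABCB11 difference was not tested.

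The sterol and phospholipid exporters had 3 of 7 genes above the floor, with a median of 0.17 and 0 beyond 2-fold. ABCG1, which passes cholesterol to lipoproteins, went from 68.7 to 118 (0.77, or 1.71-fold) in the probe set that stands for it. Its other probe set above the floor went from 43.4 to 135, a difference of 1.64, with both levels above the floor. The call of ABCG1 at 2-fold therefore depends on the probe set. The remaining ABCG1 probe sets were under the floor on both arrays.

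The 6 genes nearest to ABCG1 on chromosome 21 ran from -0.95 (TFF1, from 81.7 to 42.4, under the floor and at least 1.88-fold lower) to 0.32 (C2CD2). ABCG8, which with ABCG5 secretes plant sterols and cholesterol, was at 40.5 and 45.6, next to the floor (0.17). ABCA7, a phospholipid exporter, went from 87.7 to 81.5 (-0.11). ABCA1, the main exporter of cholesterol to apolipoprotein A-I, had 4 probe sets, of which 0 were above the floor, the brightest at 28.3 and 33.4. ABCB4, ABCG4 and ABCG5 were under the floor on both arrays too.

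In the ABCG subfamily ABCG1 and ABCG2 were the 2 genes above the floor on both arrays. Their differences were 0.77 and 0.76 in the probe sets that stand for them, but 1.64 in the other ABCG1 probe set above the floor. ABCG8 passed only through the C4-2B-MDVR array, so its sign adds nothing.

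The other ABCA genes above the floor, read from their brightest probe sets, stayed within 1.5-fold on the 2 arrays. ABCA3, which loads surfactant lipids into the lamellar bodies of lung cells, went from 149 to 201 (0.43). ABCA4, the retinoid flippase of photoreceptors, went from 36.1, under the floor, to 49.8 and was at least 1.19-fold higher. ABCA2, a lysosomal lipid transporter of brain, went from 180 to 145 (-0.32), but its 3 probe sets ran from -0.32 to 0.33. The ABCA median was 0.16 over 4 of 11 genes above the floor. ABCA5, ABCA6, ABCA8 and ABCA9, which sit together on chromosome 17, were all under the floor on both arrays, as were ABCA12 and ABCA13.

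The mitochondrial half-transporters lay on the lower side: all 3 on the array were above the floor and had differences below 0, with a median of -0.42, and 0 were beyond 2-fold. ABCB10, which acts in heme synthesis of red cell precursors, went from 398 to 207 (-0.94, or 1.92-fold lower) in its 1 probe set, and 536 genes (3.99%) were as low or lower. ABCB6, a porphyrin transporter, went from 576 to 432 (-0.42), and its second probe set was at 0.07. ABCB8, described as part of a mitochondrial potassium channel, went from 109 to 84.3 (-0.37), with its second probe set at -0.02. The direction was thus near 0 in the second reading of ABCB6 and ABCB8.

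The peroxisomal and lysosomal transporters lay slightly above 0, with a median of 0.33 over 3 of 4 genes. ABCD3, which imports branched fatty acids and bile acid precursors into peroxisomes, went from 883 to 1111 (0.33), and its second probe set from 239 to 452 (0.92, or 1.89-fold). Both ABCD3 readings were higher in C4-2B-MDVR. ABCD4, which with a partner moves vitamin B12 out of lysosomes, was at 175 and 185 (0.08), and its second probe set was under the floor. ABCB9, a lysosomal peptide transporter, went from 82.8 to 104 (0.34) and from 56.0 to 68.1 (0.28). ABCD2 was under the floor.

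Of the sulfonylurea receptors, which are ABC proteins that gate potassium channels rather than transport, ABCC8 went from 55.5 to 90.8 (0.71, or 1.64-fold) and in its second probe set from 37.3, under the floor, to 49.4, at least 1.18-fold higher. ABCC9 had 5 probe sets, all under the floor. ABCB5, a transporter described in melanoma cells, went from 63.5 to 56.6 (-0.17) in the 1 of its 4 probe sets above the floor.

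How far the probe sets of a gene matched set a limit on these readings. Of the 83 member probe sets 39 were above the floor. Of these 3 were 2-fold or more higher (2 of ABCB11 and 1 of ABCG1), against 2.75% of all probe sets above the floor. The 3 that were 2-fold or more lower, against 4.06% of all, were all ABCC4. Of the 13 genes with 2 or more probe sets above the floor, 7 had readings within 0.5 of each other on the log2 scale and 6 did not: ABCA2, ABCB11, ABCC4, ABCC5, ABCD3 and ABCG1. In 4 of the 13 (ABCA2, ABCB6, ABCC3 and ABCC5) readings lay on both sides of 0. The other 8 genes rested on 1 probe set above the floor.

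**Figure D3:**
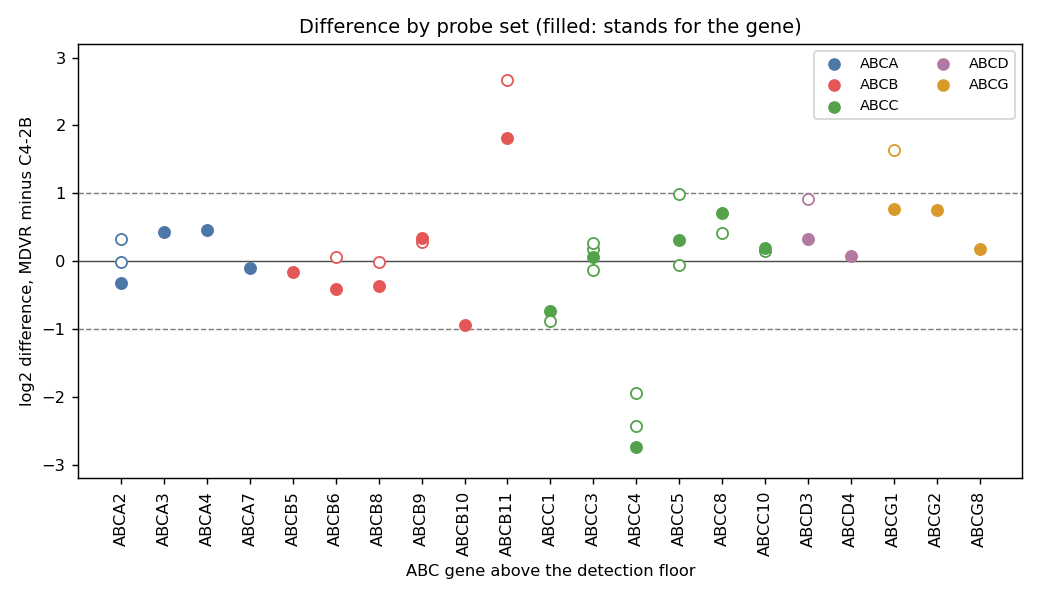
Log2 difference (C4-2B-MDVR minus C4-2B) of each of the 39 probe sets above the floor, by ABC gene and coloured by subfamily; filled points stand for the gene, open points are its other probe sets, and dashed lines mark 2-fold. The 3 ABCC4 points lie between -2.74 and -1.94, both ABCB11 points lie above 1, and the ABCG1 points fall on either side of that line.

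ABC proteins that carry other names were mixed as well, with a median of -0.03 over 6 of 7 genes above the floor and 0 beyond 2-fold. The soluble members, which have no membrane part and act on ribosomes, were lower in part. ABCF1, a translation factor, went from 796 to 403 (-0.98), ABCE1, which recycles ribosomes, from 1129 to 649 (-0.80, and -1.13 in its second probe set) and ABCF2 from 1116 to 946 (-0.24), while ABCF3 went from 291 to 352 (0.28). The peptide transporter subunit TAP1 went from 135 to 256 (0.92) and its partner TAP2 from 114 to 130 (0.19), with TAP2 probe sets from -0.38. The chloride channel CFTR was under the floor on both arrays.

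Carriers of organic anions and cations had 9 of 20 genes above the floor, a median of 0.13 and 0 beyond 2-fold. SLCO3A1, which takes up prostaglandins and thyroxine, went from 63.5 to 110 (0.80, and up to 1.64 in another of its 3 probe sets). SLCO5A1 went from 31.2, under the floor, to 57.1, at least 1.36-fold higher. SLCO4A1, a carrier of thyroid hormone and estrogen conjugates, went from 570 to 352 (-0.70), with its second probe set at 0.07. The carnitine carrier SLC22A5 was at 0.32 in one probe set and -0.89 in the other.

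Transcription factors that act on ABC genes, and their regulators, had 13 of 15 genes above the floor, with a median of 0.14, 2 genes 2-fold or more higher (15.4%, against 3.17% of all genes) and 0 lower. PPARG, a lipid-sensing receptor that raises cholesterol export in macrophages, went from 58.3 to 221 (1.92, or 3.79-fold) in its 1 probe set above the floor. ARNT, the partner of the dioxin receptor, went from 153 to 347 (1.18), but its 5 probe sets ran from -0.53 to 1.18. PPARD went from 250 to 459 (0.88, with probe sets from 0.17) and HIF1A from 1772 to 1327 (-0.42). AHR and NR1I3 were under the floor on both arrays, and NR1H2, NR1H4 and NR1I2 were not analysed here.

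Genes that supply or receive exported cholesterol had a median of 0.07 over 8 of 9 genes above the floor. NPC2, which hands cholesterol out of lysosomes, went from 609 to 1255 (1.04) and was the 1 gene beyond 2-fold (12.5%, against 6.67% of all genes). Its membrane partner NPC1 went from 600 to 369 (-0.70). MYLIP, which degrades the LDL receptor, was at -0.60 with probe sets up to 0.15, and LPCAT3, which remodels phospholipids, at 0.48. Proteins that work with single ABC transporters had a median of 0.32 over 8 of 9 genes and 0 beyond 2-fold. The mitochondrial iron importer SLC25A37, which is stabilised by ABCB10, went from 707 to 365 (-0.95), though its 10 probe sets ran from -0.95 to 0.45. KCNJ8, a channel subunit that pairs with ABCC9, went from 24.6 to 46.5 (at least 1.11-fold higher), TAPBP, which docks MHC molecules to TAP, from 235 to 367 (0.65), and PEX3, part of the machinery that places ABCD proteins in peroxisomes, from 536 to 726 (0.44, and -0.56 in its other probe set).

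**Figure D4:**
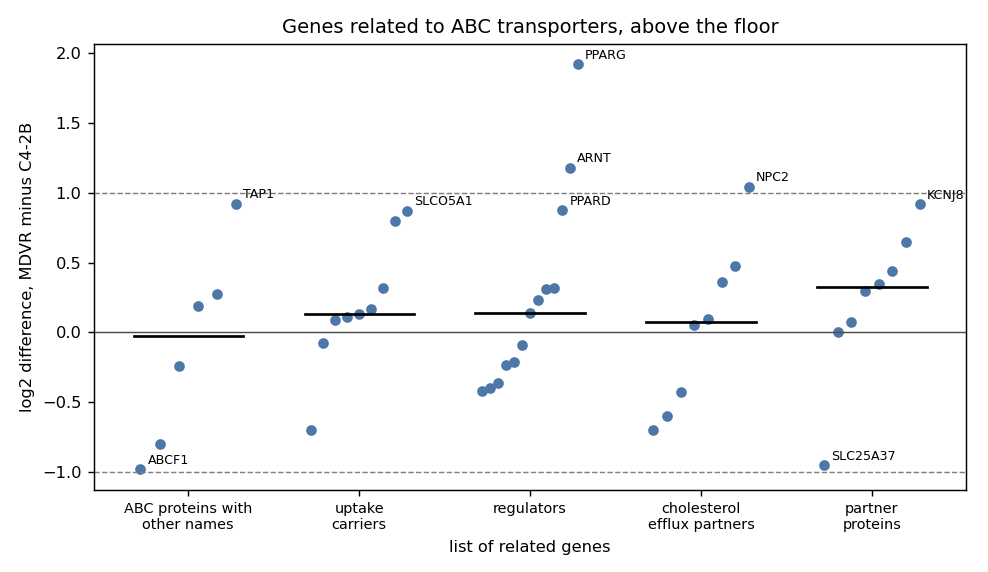
Log2 difference (C4-2B-MDVR minus C4-2B) of genes above the floor in 5 lists related to ABC transporters, with a bar at each list's median and dashed lines at 2-fold. List medians lie between -0.03 and 0.32, and PPARG (1.92), ARNT (1.18) and NPC2 (1.04) are the 3 genes beyond 2-fold.

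The labelled cell type was checked on its markers. All 8 prostate luminal markers, among them HOXB13 (1879 in C4-2B, 1950 in C4-2B-MDVR) and KRT18 (4337, 4038), were above the floor on each array. In the probe sets that stand for the genes, KLK2 and SLC45A3 were the 2 beyond 2-fold (25%, against 6.67% of all genes). The 2 FOXA1 probe sets above the floor ran from -1.18 to -0.08, and the 3 of KLK2 from -2.37 to -0.88. Above the floor were 1 of 3 blood markers, 2 of 3 endothelial and 2 of 4 fibroblast markers, all within 2-fold in the probe set that stands for the gene. The 3 COL1A1 probe sets above the floor ran from -0.23 to 1.20, while PTPRC, CD14, CDH5, COL1A2 and LUM were under it on both arrays.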

How the data were processed

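RNA from 1 sample of each line was extracted with Trizol, amplified, biotin-labelled and hybridized, per the labels' protocols. The authors deposited one intensity per probe set, unlogged judging by the range; how they corrected background, normalized and summarized probes, and their genome build, is not given in the sources used here. The table held 54675 probe sets and 0 columns of other samples. Log2 was taken of the values as deposited. The platform annotation of 2016 gave 1 symbol to 41097 probe sets, several to 1801 and none to 11777; symbols and gene types were checked by Entrez identifier in RefSeq (GRCh38.p14), where 41037 matched. A gene was read from its probe set with the highest mean log2 intensity. The floor was the 50th percentile of each array. Where the dimmer array was under it, "at least N-fold" divides the brighter value by the floor of the dimmer array. No test was possible with 1 array per line.

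Members, gene lists, thresholds and alternatives were chosen with earlier results of these data known. All members above the floor were named. So were the listed ABC genes whose symbols the member rule did not take, and up to 4 genes of each other related list by size of difference. Neighbouring genes, transcription start windows and motifs were added after values were seen. Promoter windows come from RefSeq, GRCh38.p14; ABCG1 and ABCC1 had no entry in the table used. Alternatives were median centring, quantile normalization, loess (span 0.3), averaging the probe sets of each gene, leaving out probe sets marked _x_at or _s_at, other floors and thresholds of 1.5-fold and 3-fold. The calling step was tested on simulated data. Python 3.11.15, numpy 2.4.6, pandas 2.3.3, statsmodels 0.14.6 and matplotlib 3.10.9 were used.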

Additional observations from a re-analysis of the deposited data

How the results depend on the processing

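The 2-fold calls of ABCC4 and ABCB11 held under each of the 9 changes of scaling, probe set or floor in which the gene could be read: ABCC4 ranged from -2.79 to -1.89 and ABCB11 from 1.12 to 2.66. ABCB11 has no value with the floor at the 75th percentile, where 9 members remained and 0 were 2-fold or more higher. Over the 18 members above the floor on both arrays, an alternative chosen after seeing the data, 0 were 2-fold or more higher and 1 lower, with a median of 0.074. With a threshold of 1.5-fold 4 members were higher and 3 lower, and with 3-fold 1 each way. Medians of few genes moved with the choice of probe sets and floor. Averaging the probe sets of a gene gave an ABCA median of -0.0024. Leaving out probe sets marked _x_at or _s_at gave 0.33 for all members, 0.43 for ABCA, -0.14 for ABCC, 0.33 for ABCD and 0.46 for ABCG. The floor at the 25th percentile gave -0.13 for ABCB and 0.23 for ABCG. The floor at the 75th percentile gave -0.32 for all members, 0.057 for ABCA, -0.68 for ABCB and -0.73 for ABCC. No floor gave -0.018 for ABCA, -0.13 for ABCB, 0.082 for ABCD and 0.23 for ABCG. These alternatives change which genes or probe sets are counted. The rescalings moved no member median by 0.1 or more, and the median of all genes lay between -0.01 and 0.06 under them. Under some of the alternatives no single-gene value could move by 0.1, those of ABCC4 and ABCB11 included. Both genes did move by more than that with probe sets averaged. A floor at another percentile, or none, leaves a gene's own difference as it was. Median centring shifts every gene by the same amount, which was under 0.1. Of 169 single-gene values under an alternative 154 moved by less than 0.1. In 3 the sign turned, none of them a gene beyond 2-fold: ABCA2 (0.33) and ABCC3 (-0.14) without _x_at and _s_at probe sets, and ABCD4 (-0.06) with probe sets averaged. Signal near background limits the 16 members under the floor on both arrays, for which no direction can be given. No paired analysis was possible because each line has 1 array.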
